A study of Mus musculus with 23 samples.

Results

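Messenger RNA of the IGF1 axis was compared between Nedd8-deficient and control hippocampal cultures. The axis was taken as 10 genes out of the 56941 in the count tables, chosen by name and found by Ensembl identifier in the GRCm39 annotation. They were the ligand *Igf1*, the receptors *Igf1r* and *Insr*, the adaptor *Irs1* and the binding proteins *Igfbp2*, *Igfbp3*, *Igfbp4*, *Igfbp5*, *Igfbp6* and *Igfbp7*. Both groups of cultures came from the hippocampi of homozygous Nedd8cKO mice at P0, in which loxP sites flank the second and the third exon of *Nedd8*, so the controls carry the floxed alleles too. The RFP cultures received a lentivirus encoding red fluorescent protein, and the CRE cultures one encoding CRE recombinase with RFP. Per the study's methods both were driven by the Synapsin1 promoter, which is active in neurons, so other cells in the dish are not the intended target of CRE. Infection was on the first day in vitro, and RNA was taken after 12 days in culture per the labels, while the study's methods put the harvest on the next day. The 12 CRE and 11 RFP libraries came from 3 numbered cultures with up to 4 libraries per culture and virus. Cultures were told apart by the first number in the sample titles, which no source explains in words. Nothing states that libraries sharing that number came from separate animals, so p-values measure the spread between these libraries. The study counts 3 biological replicates, fewer than the libraries that give n here, and a fit of counts summed per culture is therefore given among the alternatives.

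IGF1 is a secreted growth factor that binds the receptor tyrosine kinase IGF1R and, more weakly, the insulin receptor. The activated receptors phosphorylate IRS adaptors, which recruit PI3K and switch on AKT and mTOR, a route known for promoting survival, growth and synapse formation in neurons. The IGF binding proteins are secreted carriers that hold IGFs outside the cell and can block or prolong their action, and proteases such as PAPP-A release the ligand by cleaving them. Nedd8 is a small ubiquitin-like protein best known for modifying cullins, the scaffolds of a large class of ubiquitin ligases.

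The upstream sequences of the 4 binding protein genes with the highest mRNA levels are shown, because these genes carried the largest differences between the groups. Each line gives the 100 bases before the RefSeq start of transcription in GRCm38.p6, 5′ to 3′ on the strand of the gene. Capitals mark the GC box letters GGGCGG in *Igfbp2* and, in *Igfbp4*, the letters TATAAA of the box that binds TBP.
Igfbp2: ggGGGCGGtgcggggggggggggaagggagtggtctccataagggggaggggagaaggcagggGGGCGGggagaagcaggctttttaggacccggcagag
Igfbp3: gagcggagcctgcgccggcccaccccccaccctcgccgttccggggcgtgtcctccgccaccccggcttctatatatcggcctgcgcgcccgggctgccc
Igfbp4: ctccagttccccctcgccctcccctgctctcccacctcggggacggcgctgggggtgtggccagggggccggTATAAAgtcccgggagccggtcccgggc
Igfbp5: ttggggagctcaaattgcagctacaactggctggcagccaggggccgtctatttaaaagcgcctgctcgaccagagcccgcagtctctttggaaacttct
They lie at chr1:72824380-72824479 (plus strand), chr11:7213924-7214023 (minus), chr11:99041144-99041243 (plus) and chr1:72874866-72874965 (minus). The *Igfbp2* line belongs to the first of its 2 RefSeq starts. Of the bases printed, 71% were G or C for *Igfbp2*, 77% for *Igfbp3*, 75% for *Igfbp4* and 55% for *Igfbp5*.

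The motif search read both strands of the 300-base windows, from 250 bases before to 50 after the start. It covered 9 of the 10 genes, as the RefSeq set used held no entry for *Insr*. TATAAA stood at -28 in *Igfbp4* and, on the opposite strand, at -148 in *Igfbp6*, and is in 13.6% of all 32851 windows. GGGCGG occurred 3 times in *Igfbp2*, 2 times in *Igf1r* and in *Irs1*, and 4 times in *Igfbp7*, against 35.7% of all windows with at least 1 copy. The FOXO element GTAAACA, present in 3.65% of all windows, was in none of the windows of the 9 members searched. The AP-1 element TGANTCA, in 7.81% of all windows, stood at -37 in *Igf1* and at -39 before the second start of *Igfbp2*. The antioxidant core TGACNNNGC (12.4% of all windows), the hypoxia core ACGTG (19.6%) and the TEAD element GGAATG (14.7%) were each in *Irs1*. The antioxidant core was also in the second *Igfbp2* window, the hypoxia core in the first *Igfbp2* window and in *Igfbp7*, and the TEAD element in *Igfbp5*. No element searched was shared by all 4 binding protein genes printed, and a match in these letters is not evidence of binding.

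In the GRCm39 annotation *Igfbp2* (chr1:72863606-72891634, plus strand) and *Igfbp5* (chr1:72897091-72914043, minus strand) lie next to each other, tail to tail. *Igfbp3* lies at chr11:7156086-7164179 (minus) and *Igfbp4* at chr11:98932064-98945218 (plus). *Igf1* lies at chr10:87693642-87772904 (plus), *Igf1r* at chr7:67601518-67883416 (plus), *Insr* at chr8:3172061-3329647 (minus) and *Irs1* at chr1:82210822-82269338 (minus). *Igfbp6* lies at chr15:102052697-102057953 (plus) and *Igfbp7* at chr5:77493130-77555931 (minus). All are protein-coding. The counts are of reads over exons, and the strand setting of the counting is not given in the sources used here. It matters most for *Igfbp7*, whose exons share 747 bases with *Polr2b* on the opposite strand.

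*Nedd8* was lower in every CRE library, at 11.4 ± 3.68 CPM (counts scaled to library size, mean ± SD, n = 10) against 60.6 ± 10.0 in RFP (n = 11). The comparison used 10 CRE and 11 RFP libraries, because the study's methods remove CRE 1-3 and CRE 3-3. Their totals ran from 8923280 to 13345552 counts in CRE and from 7635735 to 17112815 in RFP. Mitochondrial transcripts took 0.261% of counts in CRE 1-3 and 1.83% in CRE 3-3, which held 1546796 counts, and 3.43% in RFP 2-4, against 6.997 to 11.1% in the other 20 libraries. In RFP 3-2 the rRNA gene *Rn18s-rs5* took 24.2% of the counts, against at most 5.86% elsewhere. Results are therefore also given for all 23 libraries and for the 19 left without these 4.

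Of the 10 genes, 9 passed the filter on low counts, and 8 of these were higher in CRE cultures at an edgeR adjusted p under 0.05, with none lower. Over all 14482 genes tested, 5492 (37.9%) were called, 20.2% higher and 17.8% lower, so calls were common across the transcriptome. The members were chosen with earlier results of these data known, so the count of 8 set against that share is not a test of the axis. The exception among the 9 was the ligand, *Igf1*. *Igfbp6* did not pass the filter. In *Igfbp2*, *Igfbp3* and *Igfbp4* all 10 CRE libraries lay above all 11 RFP libraries, which held for 3.07% of the genes tested. The median log2 fold change of all genes tested was 0.02. RNA was measured in whole dishes, so a change in the number of cells of a type and a change in RNA per cell cannot be told apart.

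**Figure D1:**
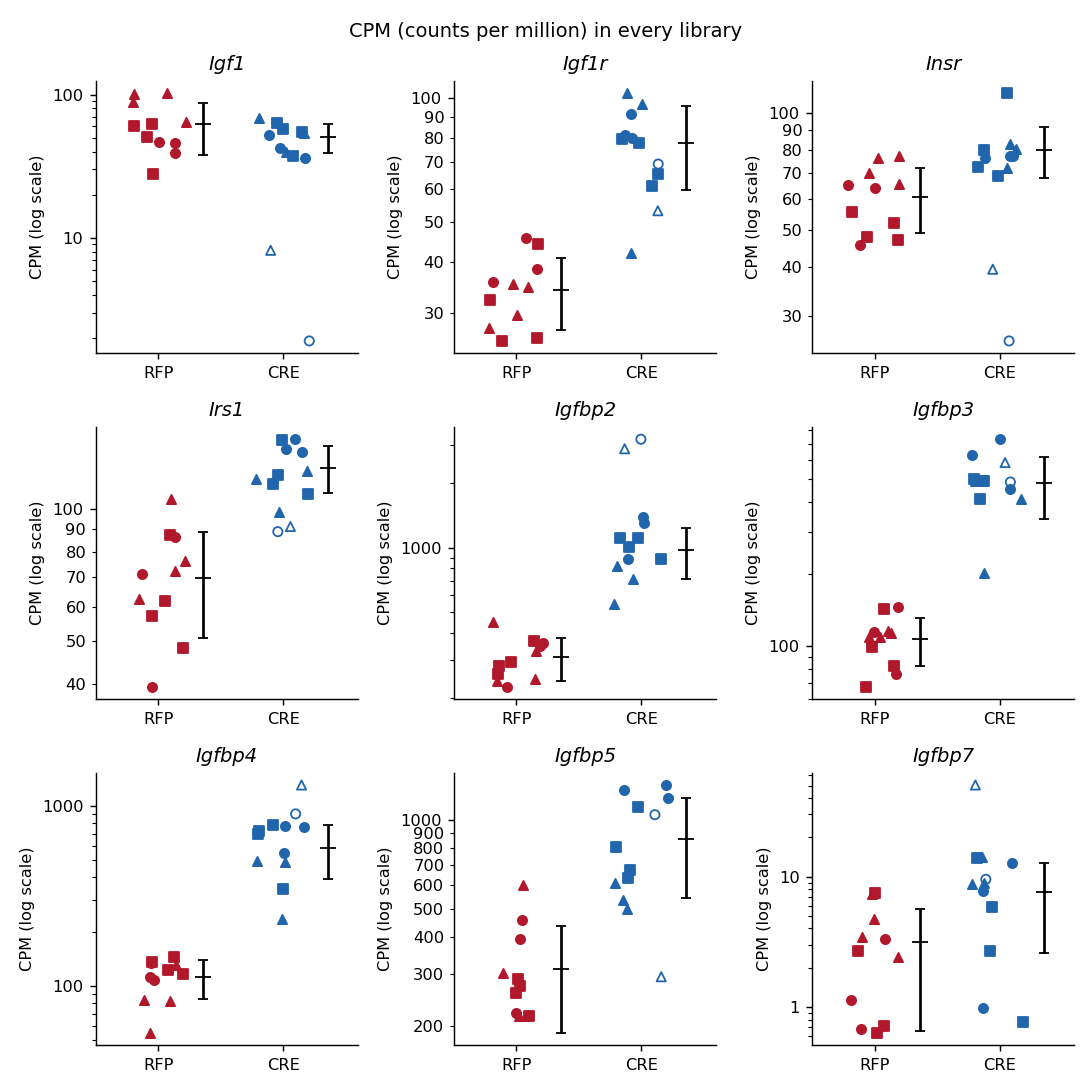
CPM on a log scale for 9 members in every RFP and CRE library. Circles, squares and triangles are cultures 1, 2 and 3, open symbols are CRE 1-3 and CRE 3-3, which the comparison leaves out, and the bars are mean ± SD of the other libraries. The CRE symbols of *Igfbp2*, *Igfbp3* and *Igfbp4* all lie above the RFP symbols, and the filled CRE symbols of *Igf1* lie among the RFP symbols, with the 2 open ones below them.

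The ligand mRNA was not called over the cultures together. *Igf1* ran from 36.2 to 68.4 CPM in CRE (median 53.1) and from 27.8 to 102 CPM in RFP (median 60.7). The CRE range lay wholly inside the RFP range. The log2 fold change was -0.31 ± 0.19 (SE, 95% interval -0.70 to 0.08, edgeR adjusted p = 0.215), and the interval left out the log2 fold change of every other member tested. By culture it was 0.00 in culture 1, 0.08 in culture 2 and -0.72 in culture 3, where alone it passed the threshold (edgeR adjusted p = 0.0412). In culture 3 the 4 RFP libraries held 64.3 to 102 CPM, the highest of the series but for 1 CRE library at 68.4 CPM. The difference between cultures did not pass the interaction test (edgeR adjusted p = 0.493). In the libraries left out *Igf1* was far lower, at 1.91 CPM in CRE 1-3 and 8.18 CPM in CRE 3-3. Including them gave a log2 fold change of -0.53 (edgeR adjusted p = 0.239).

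The receptor of the ligand rose. *Igf1r* held 42.0 to 103 CPM in CRE (median 79.6) and 25.7 to 45.6 CPM in RFP (median 34.8). Of the 10 CRE libraries 9 lay above every RFP library, and the exception was CRE 3-2. The difference was 2.28-fold (95% interval 1.89 to 2.74), a log2 fold change of 1.19 ± 0.13 (edgeR adjusted p = 2.91e-08). It was similar in the 3 cultures, at log2 1.07, 1.15 and 1.33.

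*Insr*, the insulin receptor, differed less. It held 68.5 to 112 CPM in CRE (median 77.3) and 45.6 to 77.2 CPM in RFP (median 63.9), and 5 CRE libraries lay above every RFP library. The log2 fold change was 0.40 ± 0.11 (edgeR adjusted p = 0.00297). It was highest in culture 2, at 0.72, with 0.41 in culture 1 and 0.12 in culture 3, although the interaction did not pass (edgeR adjusted p = 0.456). Culture 2 alone passed the threshold (edgeR adjusted p = 0.000769). The call was lost with all 23 libraries (log2 0.26, edgeR adjusted p = 0.266), since *Insr* was at 25.9 CPM in CRE 1-3 and 39.6 CPM in CRE 3-3, and it was lost without culture 2 (log2 0.23, edgeR adjusted p = 0.149). Within each library the ratio of *Igf1r* counts to *Insr* counts was 0.982 ± 0.234 (SD) in CRE and 0.585 ± 0.179 in RFP, with ranges of 0.582 to 1.24 and 0.396 to 1.00 that overlap.

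*Irs1*, the adaptor that links both receptors to PI3K, rose as well. It held 98.8 to 145 CPM in CRE (median 121) and 39.4 to 106 CPM in RFP (median 71.4). Only CRE 3-2 and RFP 3-2 crossed, and the other 9 CRE libraries lay above every RFP library. The difference was 1.78-fold (95% interval 1.49 to 2.13, log2 0.83 ± 0.13, edgeR adjusted p = 4.61e-06). By culture it was 1.08, 0.93 and 0.52 on the log2 scale. In culture 3 alone it did not pass the threshold (edgeR adjusted p = 0.101).

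The binding proteins held the largest differences among the members. *Igfbp4*, a carrier known mainly as an inhibitor of IGF action, held 235 to 784 CPM in CRE (median 623) and 55.0 to 144 CPM in RFP (median 116). The groups did not overlap, and the lowest CRE library was again CRE 3-2. The difference was 5.25-fold (95% interval 3.94 to 7.01, log2 2.39 ± 0.20, edgeR adjusted p = 3.37e-09), the 190th highest log2 fold change of all genes tested. The cultures gave 2.56, 2.30 and 2.20.

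*Igfbp3*, the main carrier of IGF1 in blood, held 201 to 733 CPM in CRE (median 489) and 67.2 to 144 CPM in RFP (median 109). The groups did not overlap. The difference was 4.52-fold (95% interval 3.56 to 5.74, log2 2.18 ± 0.17, edgeR adjusted p = 3.41e-10), and the cultures gave 2.44, 2.27 and 1.72.

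*Igfbp2*, a carrier abundant in developing brain, was the most abundant member per kilobase of exon, and in CPM it was close to *Igfbp5* in RFP libraries, at means of 309 and 313. It held 546 to 1385 CPM in CRE (median 948) and 225 to 450 CPM in RFP (median 295), again without overlap. The difference was 3.16-fold (95% interval 2.58 to 3.89, log2 1.66 ± 0.14, edgeR adjusted p = 1.50e-09). It was smaller in culture 3, at log2 1.14, than in cultures 1 and 2, at 1.94 and 1.77, but the interaction did not pass (edgeR adjusted p = 0.463). The libraries left out were higher still, at 3204 CPM in CRE 1-3 and 2891 CPM in CRE 3-3, and including them gave a log2 fold change of 2.10 (edgeR adjusted p = 3.50e-07).

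*Igfbp5*, the neighbour of *Igfbp2*, held 498 to 1308 CPM in CRE (median 741) and 216 to 599 CPM in RFP (median 273). The ranges overlapped through 1 RFP library of culture 3 at 599 CPM, and 8 CRE libraries lay above every RFP library. The difference was 2.75-fold (95% interval 1.99 to 3.80, log2 1.46 ± 0.22, edgeR adjusted p = 2.27e-05). The cultures gave 1.80, 1.63 and 0.72, with an interaction at an edgeR adjusted p of 0.498. Culture 3 alone did not pass the threshold (edgeR adjusted p = 0.116).

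The calls of *Igf1r*, *Irs1* and *Igfbp2* to *Igfbp5* were kept with and without the libraries that stood apart. With all 23 included the values were log2 1.14 for *Igf1r*, 0.77 for *Irs1*, 2.20 for *Igfbp3*, 2.59 for *Igfbp4* and 1.40 for *Igfbp5*. Over 19 libraries they were 1.13, 0.84, 2.10, 2.33 and 1.41, with 1.64 for *Igfbp2*, 0.38 for *Insr* and -0.32 for *Igf1*, and *Igf1* was again the only 1 of these 8 not called. With counts summed per culture 7 members were called, and *Insr* was not (log2 0.37, edgeR adjusted p = 0.065).

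**Figure D2:**
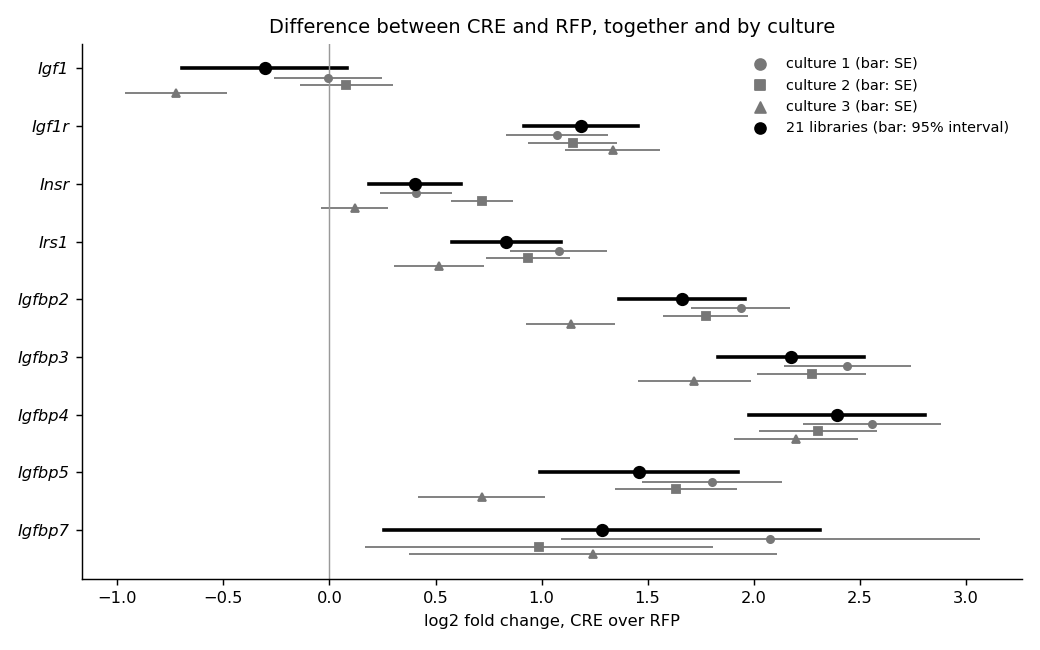
Log2 fold change of CRE over RFP for 9 members. Black points and bars are the value over 21 libraries and its 95% interval, and grey symbols and bars are each culture's value and SE. *Igfbp3* and *Igfbp4* lie above 1.7 in every culture, and culture 3 lies lowest for *Igf1*, *Insr*, *Irs1*, *Igfbp2*, *Igfbp3*, *Igfbp4* and *Igfbp5*.

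*Igfbp7* and *Igfbp6* were scarce. *Igfbp7*, a low-affinity relative found mostly around blood vessels, held 0.768 to 14.2 CPM in CRE (median 8.31) and 0.636 to 7.50 CPM in RFP (median 2.67). Libraries of both groups lay near the bottom of the range, and 6 CRE libraries lay above every RFP library. Its log2 fold change of 1.28 ± 0.50 passed by little (edgeR adjusted p = 0.0444). The call was lost in 15 of the 21 fits that left out 1 library, with adjusted p from 0.018 to 0.084, and stayed when CRE 1-1, CRE 2-1, CRE 2-3, RFP 2-3, RFP 3-1 or RFP 3-3 was the one left out. It was also lost in the fit of 19 libraries (log2 1.16, edgeR adjusted p = 0.091). *Igfbp6*, known for binding IGF2, had 0 to 10 counts per library in CRE and 0 to 5 in RFP. Fitted without the filter its log2 fold change was 2.10 ± 1.03 (edgeR adjusted p = 0.131), so a difference was not detectable at this depth.

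Per length, *Igfbp2* to *Igfbp5* lay above the ligand, the receptors and the adaptor in both groups. Levels were divided by the length of the joined exons of each gene, which allows a rough comparison of genes. The joined exons cover all annotated transcripts, from 2079 bases for *Igfbp2* to 19768 for *Igf1r*. They can be longer than the transcript expressed, so these levels and the ratios between genes depend on the annotation. In RFP libraries *Igfbp2* held 149 ± 33.2 CPM per kilobase (SD, n = 11), *Igfbp5* 52.1 ± 20.4, *Igfbp3* 29.8 ± 6.86 and *Igfbp4* 25.2 ± 6.19. The mean ± SD of *Igfbp5* and *Igfbp3* overlapped, as did those of *Igfbp3* and *Igfbp4*. *Irs1* was at 7.48 ± 2.03, *Igf1* at 6.14 ± 2.43, *Insr* at 4.40 ± 0.841, *Igf1r* at 1.73 ± 0.343, *Igfbp7* at 0.577 ± 0.458 and *Igfbp6* at 0.0604 ± 0.0779 CPM per kilobase. Here *Irs1* and *Igf1*, and *Igf1* and *Insr*, were within each other's spread.

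In CRE libraries *Igfbp2* held 470.0 ± 125 CPM per kilobase (SD, n = 10). *Igfbp5* at 143 ± 52.8, *Igfbp3* at 135 ± 39.2 and *Igfbp4* at 132 ± 43.9 were then within each other's spread. *Irs1* was at 13.3 ± 1.66, *Insr* at 5.81 ± 0.876, *Igf1* at 4.95 ± 1.10, *Igf1r* at 3.93 ± 0.907, *Igfbp7* at 1.41 ± 0.929 and *Igfbp6* at 0.287 ± 0.264 CPM per kilobase. Here *Insr* and *Igf1*, and *Igf1* and *Igf1r*, were within each other's spread. Summed over the 6 binding proteins the level was 882 ± 237 in CRE, from 458 to 1255 across libraries, and 256 ± 54.2 in RFP, from 197 to 368. The summed level divided by that of *Igf1* was 188 ± 75.7 in CRE and 47.8 ± 19.6 in RFP, and the ranges of 112 to 339 and 20.3 to 86.4 did not overlap. These sums and ratios are descriptions of mRNA with no test, and say nothing of protein.

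Ranked by mean share of the summed level, the binding proteins had the same order in both groups. However, single libraries of both groups ranked them otherwise. In CRE the shares of *Igfbp5*, *Igfbp3* and *Igfbp4* lay within each other's spread, as did those of *Igfbp3* and *Igfbp4* in RFP. In RFP 1-2 *Igfbp4* was at 30.4 CPM per kilobase, above *Igfbp3* at 21.4. In CRE 2-1 *Igfbp5* was at 113 CPM per kilobase, below *Igfbp3* at 140 and *Igfbp4* at 177. *Igfbp2* made up 53.4 ± 2.39% (SD) of the summed level in CRE and 57.8 ± 2.52% in RFP. *Igfbp4* made up 14.9 ± 2.81% and 10.3 ± 3.44%, *Igfbp3* 15.2 ± 1.76% and 11.8 ± 2.41%, and *Igfbp5* 16.3 ± 4.05% and 19.8 ± 3.60%. The ranges of the groups overlapped for each of them.

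**Figure D3:**
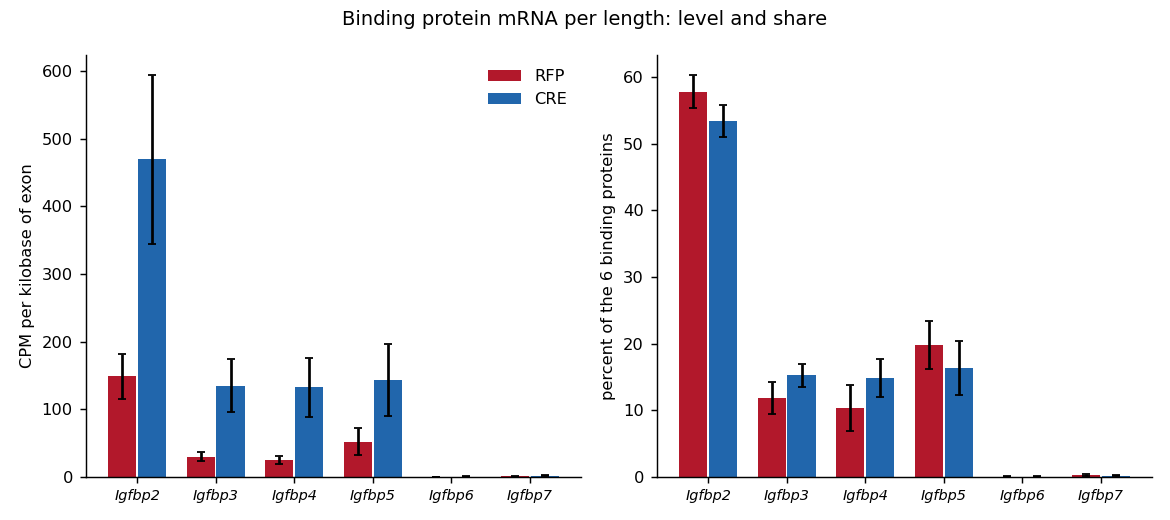
The left panel gives the level of each binding protein in CPM per kilobase of exon and the right panel its percent of the 6 summed, as mean ± SD of 11 RFP and 10 CRE libraries. *Igfbp2* is the tallest in both groups, and *Igfbp6* and *Igfbp7* lie near 0.

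Within a group the members did not all vary together. Correlations of log2 CPM were taken over 19 libraries after the group means were subtracted, which leaves the differences between cultures, dishes and depth that the libraries share. *Igfbp2* went with *Igfbp3* (Pearson's r = 0.81) and with *Igfbp5* (0.78), while *Igfbp4* and *Igfbp5* were nearly unrelated (0.12). *Irs1* went with *Igfbp2* (0.68) and *Igfbp3* (0.67). *Igf1* was near 0 with *Igfbp2* (0.02) and with *Igf1r* (0.06), and its highest value was with *Insr* (0.61). *Igfbp7* was negative with *Igfbp4* (-0.54).

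Among all genes tested, the 3 most like each member were picked by this measure. For *Igfbp4* they were *Prkce* (0.95), *Syn2* (0.95) and *Zhx3* (0.93). For *Igfbp3* they were *Tmem47* (0.91), *Arl5a* (0.88) and *Jam2* (0.88), and for *Igfbp2* *Epdr1* (0.89), *Tnfrsf1a* (0.87) and *Slc5a3* (0.87). *Ctsd* (0.87), *Snx5* (0.86) and *Ucma* (0.86) were most like *Igfbp5*. For *Igf1* they were *Cpne8* (0.84), *Cntn4* (0.83) and *Kcnmb2* (0.82), and for *Igf1r* *Tcp11l2* (0.86), *Cdk5rap2* (0.84) and *Vwa5a* (0.83). *Irs1* was most like *Lrrk1* (0.86), *Arhgef12* (0.82) and *Tead1* (0.81), and *Insr* like *Cpap* (0.81), *Gusb* (0.78) and *Senp8* (0.77), the last a protease of Nedd8. *Loxl2* (0.83) and *Fbn1* (0.82), genes of the extracellular matrix, and *Hpcal1* (0.82) were most like *Igfbp7*. With 19 libraries and 14482 genes, high values of this kind are a description only.

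The other ligands were barely detected. *Igf2* had at most 120 counts in a library, at 1.64 ± 3.38 CPM (SD) in CRE and 1.22 ± 2.00 in RFP, and did not pass the filter. *Ins1*, *Ins2* and *Igfals*, which encode insulin and the acid-labile subunit of the IGF carrier complex, had at most 3, 5 and 9 counts in a library, and *Insrr* had 0 in all 21. *Igf2r*, the receptor that takes up and clears IGF2, was the 1 gene of this list that passed the filter and rose by a log2 fold change of 0.54 ± 0.13, from 43.5 ± 8.75 to 63.2 ± 15.2 CPM (edgeR adjusted p = 0.00119).

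Genes that carry an IGFBP domain, other than the members, moved both ways. Of 14 listed 9 were tested, 2 rose and 3 fell, with a median log2 fold change of 0.00. Over all genes tested, 20.2% rose and 17.8% fell, which is the background for this list and those that follow. The 2 that rose were the matricellular genes *Ccn2*, from 10.5 ± 4.40 to 91.7 ± 35.0 CPM (log2 3.14 ± 0.27, edgeR adjusted p = 4.11e-09), and *Ccn1*, from 17.1 ± 11.2 to 104 ± 33.7 CPM (log2 2.62 ± 0.34, edgeR adjusted p = 2.88e-06). Their relative *Ccn3* fell, from 134 ± 70.2 to 60.8 ± 17.9 CPM (log2 -1.15 ± 0.30, edgeR adjusted p = 0.00444). *Igfbp1* had 0 counts in all 21 libraries.

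Of 8 proteases of the binding proteins and inhibitors of those proteases, 7 were tested, 3 rose and none fell (median log2 0.35). *Pappa*, which cleaves IGFBP4 and IGFBP5, was at 10.1 ± 4.25 CPM in CRE and 3.80 ± 2.35 in RFP (log2 1.40 ± 0.33, edgeR adjusted p = 0.00113). *Adamts1*, a secreted metalloprotease, was at 156 ± 37.7 and 56.5 ± 21.7 CPM, with all CRE libraries above all RFP libraries (log2 1.47 ± 0.18, edgeR adjusted p = 3.77e-07). The other gene that rose was *Stc2*, listed as an inhibitor of the proteases, at 55.6 ± 39.9 CPM in CRE and 28.9 ± 17.0 in RFP. Its log2 fold change was 0.95 ± 0.36 (edgeR adjusted p = 0.0423).

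Below the receptors the changes were mixed. All 20 genes listed as adaptors and inhibitors of the receptors were tested, 8 rose and 2 fell (median log2 0.21). The shares over all genes tested were 20.2% higher and 17.8% lower. *Shc1*, an adaptor that leads to the RAS pathway, had all CRE libraries above all RFP libraries at 66.6 ± 10.1 against 11.8 ± 3.01 CPM (log2 2.51 ± 0.14, edgeR adjusted p = 3.60e-14). *Socs3*, an inhibitor that acts on insulin and cytokine receptors, was at 11.7 ± 7.17 and 2.50 ± 1.20 CPM (log2 2.21 ± 0.32, edgeR adjusted p = 1.83e-06). *Enpp1*, an inhibitor of the insulin receptor, was scarce, at 4.10 ± 4.15 CPM in CRE and 1.70 ± 0.934 in RFP. Only 3 CRE libraries lay above every RFP library (log2 1.27 ± 0.48, edgeR adjusted p = 0.0377). *Irs2*, the other main IRS adaptor, named after its values were seen, rose from 118 ± 10.3 to 215 ± 27.6 CPM (log2 0.86 ± 0.08, edgeR adjusted p = 6.98e-10).

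All 34 genes of the PI3K, AKT and mTOR chain were tested, 8 rose and 7 fell, with a median log2 fold change of -0.13. These counts lay close to the shares over all genes tested, 20.2% higher and 17.8% lower. *Eif4ebp1*, the repressor of translation that mTOR switches off, was the 1 called gene of the chain above a log2 fold change of 1, at 24.0 ± 9.74 CPM in CRE and 9.01 ± 1.92 in RFP (log2 1.41 ± 0.20, edgeR adjusted p = 1.43e-06).

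The list for the CUL7 ligase, a cullin ligase known to degrade IRS1 protein, had 1 gene called. Its 8 genes are not all subunits of that ligase, as *Glmn* and *Fbxo40* are among them. Of the 8, 7 were tested, none rose and 1 fell (median log2 -0.05). The gene that fell was *Rbx1*, the RING subunit that most cullins share, from 93.4 ± 7.12 to 69.6 ± 11.4 CPM (log2 -0.42 ± 0.08, edgeR adjusted p = 0.000184). *Cul7* itself had a log2 fold change of 0.24 ± 0.12 (edgeR adjusted p = 0.126). The substrate adaptor of CUL7, *Fbxw8*, had one of 0.10 ± 0.10 (edgeR adjusted p = 0.435).

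Of the 3 IGF2 mRNA-binding proteins, 2 rose from low levels. *Igf2bp1* was at 3.82 ± 1.65 CPM in CRE and 0.654 ± 0.707 in RFP (log2 2.64 ± 0.55, edgeR adjusted p = 0.0003), and *Igf2bp2* at 4.04 ± 2.68 and 1.19 ± 1.26 CPM (log2 1.78 ± 0.55, edgeR adjusted p = 0.0105). *Igf2bp3* was at 5.42 ± 2.02 and 4.44 ± 1.94 CPM (log2 0.29 ± 0.28, edgeR adjusted p = 0.44).

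**Figure D4:**
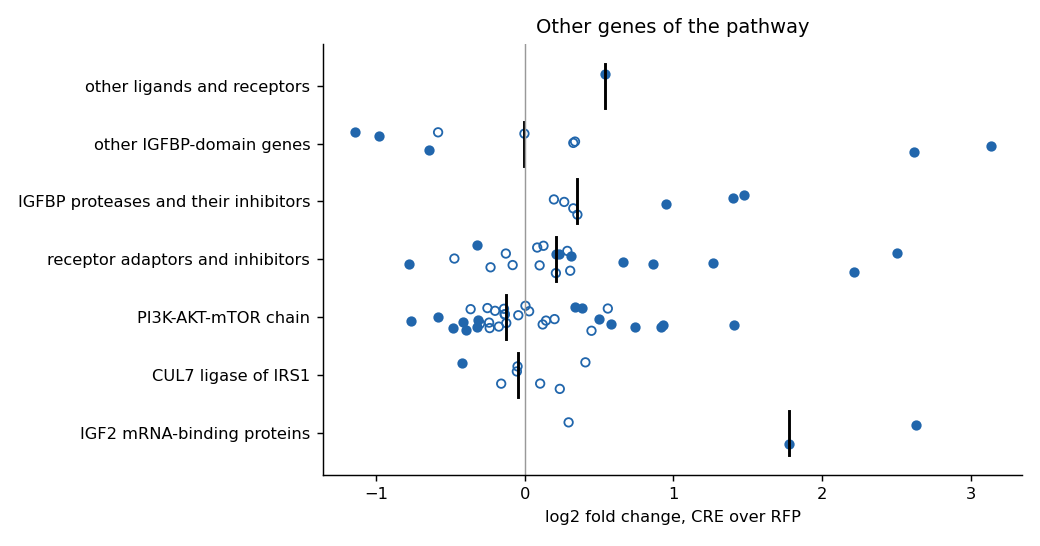
Log2 fold change of CRE over RFP for the tested genes of 7 lists of the pathway. Filled points are called at an edgeR adjusted p under 0.05, open points are not, and black bars are list medians. *Ccn1*, *Ccn2*, *Shc1*, *Socs3* and *Igf2bp1* lie above 2, and the PI3K, AKT and mTOR genes lie on both sides of 0.

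The cultures held neurons and glia, and markers of several cell types moved with the virus. Over all genes tested, 20.2% were higher and 17.8% lower in CRE. Of 12 neuron markers 1 was higher and 7 lower in CRE, with summed levels of 4359 to 7203 CPM in CRE and 6494 to 8695 in RFP. Of 14 astrocyte markers 4 were higher and 4 lower, with summed levels of 1773 to 5775 and 3288 to 8368 CPM. Of 14 oligodendrocyte lineage markers 13 were tested and 10 were lower, with sums of 454 to 1152 and 639 to 2396 CPM.

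Of 14 mesenchymal and mural markers 12 were tested, 3 were higher and 1 lower, with sums of 201 to 608 CPM in CRE and 99.9 to 286 in RFP. The 1 lower was *Cspg4* (log2 -2.05), which is also on the oligodendrocyte lineage list and counted there. Of 12 microglia markers 11 were found and 3 tested, 1 of them higher, with sums of 6.15 to 14.1 and 2.77 to 11.8 CPM. The marker that was higher was *Tmem119*, at 1.93 ± 1.03 CPM (SD) in CRE and 0.175 ± 0.275 in RFP (log2 3.40, edgeR adjusted p = 0.0001), and *Cx3cr1* had 15 counts in all, in 3 RFP libraries. Of 12 endothelial markers 3 were tested, 1 higher and 2 lower, with sums of 8.10 to 30.0 and 8.55 to 21.9 CPM. *Slco1a4* was higher (log2 2.89), *Kdr* (log2 -1.13) and *Egfl7* (log2 -1.54) were lower, and *Cldn5* had 5 counts in all, in 2 CRE libraries. Of 14 markers of GABA neurons 2 were higher and 5 lower, with sums of 1627 to 3139 and 2324 to 3967 CPM. The part of these shifts in the differences of the IGF1 axis was not tested.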

How the data were processed

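Per the labels and the study's methods, libraries were made with Illumina Stranded mRNA Prep and sequenced on a NovaSeq6000. The submitters' processing notes name bcl2fastq 2.20.0.422, STAR 2.7.8a and featureCounts 1.5.0-p1, and the genome was GRCm39. The authors deposited whole-number counts per gene for each library, without normalization. How multi-mapped reads were treated is not given in the sources used here.

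Counts were fitted with edgeR 4.0.16 in R 4.3.3 (filterByExpr, TMM factors, robust quasi-likelihood fit, Benjamini-Hochberg adjustment over all genes tested), without CRE 1-3 and CRE 3-3 as in the study's methods. Genes were called at an adjusted p under 0.05. CPM used TMM factors over all 23 libraries, and 0.5 was added before logs for correlations. Intervals are 95%. The fit was tested on simulated data. Alternatives used limma 3.58.1 and DESeq2 1.42.0. Tables and figures were made with numpy 2.4.6, pandas 2.3.3 and matplotlib 3.10.9.

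The members and lists were chosen with earlier results of these data known. All 10 members were named, and of each pathway list up to 5 called genes of smallest p with an absolute log2 fold change above 1, with any gene of 3 short lists (other ligands and receptors, the CUL7 ligase, IGF2 mRNA-binding proteins). Genes named for counts of 0 or for cell type, *Tmem119*, *Cx3cr1*, *Slco1a4*, *Kdr*, *Egfl7*, *Cldn5*, *Cspg4* and *Igfbp1*, and *Irs2*, *Stc2* and *Rn18s-rs5* fall outside that rule. No pair of libraries had identical counts. Library depth limits precision for *Igfbp6* and *Igfbp7* most, with at most 10 and 184 counts in a library of the comparison.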

Additional observations from a re-analysis of the deposited data

Results flagged for a closer look

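1 value was flagged among the 10 members in the 10 CRE libraries. *Insr* was at 112 CPM in CRE 2-3, where the next highest CRE library was at 82.9 CPM, so the gap took 0.669 of the range of the group against a critical ratio of 0.466. Chance alone flags about 1 in 20 such groups. Without this library the call for *Insr* was kept.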

How the results depend on the processing

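Across 36 alternative fits between 7 and 8 members were called, against 8 in the comparison as reported. The number of genes called ran from 3727 to 8044 and stayed within 1.5 times 5492. Of the genes on the pathway lists 37 were called, and between 24 and 45 under the alternatives, with 24 to 42 when a culture or a library was left out and the lowest without culture 2. *Igf1r*, *Irs1*, *Igfbp2*, *Igfbp3*, *Igfbp4* and *Igfbp5* kept their direction and call in all 36, and *Igf1* was called in none, with log2 fold changes from -0.53 to -0.01. *Insr* lost its call in 5: with all 23 libraries, with or without removal of a GC trend (edgeR adjusted p = 0.102 and 0.266), with the 21 libraries of the study's supplementary count table (0.149), with counts summed per culture (0.065) and without culture 2 (0.149). *Igfbp7* lost its call in 21. Besides leaving out single libraries these were the fit of 19 libraries (0.091), limma-voom (0.13), no filter on low counts (0.0953), leaving out culture 1 (0.155) or culture 3 (0.13), and culture with library number as a block (0.239). Its adjusted p ran from 0.0149 to 0.239.

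Deviations of the culture means from the group means correlated between CRE and RFP by 0.12, 0.19 and 0.08 for cultures 1, 2 and 3. These values are over the genes tested. Between unlike culture numbers the correlations ran from -0.14 to -0.004. Same-number values were the higher but small, and they do not settle whether the numbers pair the samples. The comparison as reported took no pairing. With culture as a replicate block 8 members, 5657 genes and 39 pathway genes were called, and with culture and library number as a replicate block 7, 4756 and 35. No member passed the interaction of culture and virus in the 21 libraries, in all 23 or in 19, where over all genes 45 passed in the 21 libraries.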
